A study of Mus musculus with 8 samples.

Results

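Club cells are the secretory cells of the conducting airways, and their markers were followed here in the lungs of HDM-treated and PBS-treated mice. The 8 genes described were Scgb1a1, Scgb3a1, Scgb3a2, Aldh1a1, Cbr2, Gabrp, Hp and Nkx2-1, taken by their Entrez identifiers from the 23469 genes of a lung RNA-Seq count table. All 8 were in the table, and all 8 passed the filter on low counts in each comparison. C57BL/6 wild type (WT) mice and DDAH1-transgenic (TG) mice were given 100 µg of house dust mite (HDM) extract into the trachea, in a volume of 50 µl, or the same volume of PBS without extract. There were 3 challenges a week over 3 weeks, and lungs were taken 24 h after the last challenge. The 4 groups are called WT PBS, TG PBS, WT HDM and TG HDM. The age and sex of the mice and the promoter that drives the transgene are not given in the sources used here. Each group was 1 pool of RNA from 4 mice, from which 2 libraries were made, so each SD and p-value covers the spread between libraries of 1 pool and not the spread between mice.

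Secretoglobins are small secreted proteins of mucosal surfaces. Scgb1a1 encodes the main secreted protein of club cells, Scgb3a1 and Scgb3a2 encode secretoglobins of the upper and lower airways, and all of them are kept in the airway epithelium by transcription factors that include Nkx2-1. Club cells are also rich in enzymes that handle foreign and reactive compounds, and they can give rise to mucus-producing goblet cells when the airway is challenged with allergen. In whole lung RNA, fewer club cells and less RNA per club cell cannot be told apart.

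The 250 bases before the annotated start are shown for Scgb3a1 and Aldh1a1, because Aldh1a1 fell with HDM in both genotypes, whereas Scgb3a1 passed the test in WT mice only with an offset for transcript length. The RefSeq promoter table of GRCm38.p6 had entries for 5 of the 8 members, namely Scgb3a1, Aldh1a1, Cbr2, Gabrp and Nkx2-1, and not for Scgb1a1, Scgb3a2 and Hp. The sequences run 5′ to 3′ on the strand of the gene. Capitals mark matches to 3 motifs searched on both strands. The first was CTCAAG, a core of the sites bound by NKX2-1. The second was a core of the sites bound by FOXA factors, TGTTTAC. The last was a TATA-like run written as ATAAAA. No matches overlapped.
Scgb3a1, chr11:49663345-49663594: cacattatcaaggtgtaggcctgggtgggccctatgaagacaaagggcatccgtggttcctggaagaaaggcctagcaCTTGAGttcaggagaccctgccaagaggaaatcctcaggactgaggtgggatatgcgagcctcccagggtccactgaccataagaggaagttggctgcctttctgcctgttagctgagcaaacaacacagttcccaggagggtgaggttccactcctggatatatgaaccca
Aldh1a1, chr19:20601718-20601967: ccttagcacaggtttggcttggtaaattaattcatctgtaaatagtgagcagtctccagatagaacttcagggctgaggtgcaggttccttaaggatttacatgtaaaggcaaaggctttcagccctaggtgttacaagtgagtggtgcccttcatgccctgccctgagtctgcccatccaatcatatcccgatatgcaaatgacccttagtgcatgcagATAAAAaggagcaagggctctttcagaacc
The window of Scgb3a1 held the NKX2-1 core once, on the opposite strand, from -172 to -167. The window of Aldh1a1, at the downstream of its 2 annotated starts, held the TATA-like run once, from -30 to -25. The windows of Cbr2, Gabrp and Nkx2-1 and the upstream start of Aldh1a1 held none of the 3 motifs. Over all 32851 promoter windows of the table, 13.3% held the NKX2-1 core, 3.17% the FOXA core and 17.0% the TATA-like run.

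Total counts were between 5694928 and 11929374 per library, and the smallest library was replicate 1 of TG HDM. Mouse Ddah1 had 475 and 420 counts in WT PBS, 771 and 509 in TG PBS, 482 and 445 in WT HDM, and 233 and 431 in TG HDM. The species of the DDAH1 transgene is not given in the sources used here, and whether these counts include it was not tested. After scaling, Ddah1 was at 43.1 and 44.7 CPM in WT HDM and at 34.9 and 33.4 CPM in TG HDM, so it was not higher in the libraries labelled TG HDM. By edgeR neither genotype difference passed, at log2 fold changes of -0.32 under HDM (adjusted p = 0.637) and 0.66 under PBS (adjusted p = 0.358). Ddah1 therefore does not settle the genotype labels, and libraries are named by their labels throughout. Xist, the RNA of the inactive X chromosome, had between 113 and 197 counts in the PBS libraries and between 20303 and 31372 in the HDM libraries. Ddx3y, a gene of the Y chromosome, had between 621 and 719 counts in the PBS libraries and 2 or 3 in the HDM libraries. HDM and sex therefore cannot be told apart in the comparisons of HDM with PBS or in the interaction of genotype and HDM, whereas each comparison of genotypes was made between libraries of the same Xist and Ddx3y pattern.

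The 3 secretoglobins are short genes of 3 exons each. Scgb1a1 (Entrez 22287) lies at chr19:9083642-9087956 on the minus strand of GRCm38.p6, with a transcript of 476 bases. Scgb3a1 (Entrez 68662) lies at chr11:49663595-49665118 on the plus strand, with a transcript of 493 bases. Scgb3a2 (Entrez 117158) lies at chr18:43764301-43767399 on the plus strand, with a transcript of 550 bases. The other members have longer transcripts, from 1110 bases for Cbr2 (Entrez 12409, chr11:120729485-120732025) and 1345 bases for Hp (Entrez 15439, chr8:109575128-109579172) to 2358 bases for Aldh1a1 (Entrez 11668, chr19:20492583-20643463), 2809 bases for Nkx2-1 (Entrez 21869, chr12:56531935-56536908) and 3280 bases for Gabrp (Entrez 216643, chr11:33550781-33578978). Reads cannot always be placed in 1 gene. Of all stretches of 50 bases in the Cbr2 transcript, 15.1% also occur in Gm11771, and 6.54% of those of Aldh1a1 occur in Aldh1a7, whereas none of the stretches of the 3 secretoglobins occur in another gene.

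Scgb1a1 was among the 5 genes with the most reads in each library. It took 2.80% and 3.51% of all counts in WT PBS, 2.92% and 4.29% in TG PBS, 1.05% and 1.14% in WT HDM, and 1.05% and 1.42% in TG HDM. As read counts scaled to the TMM library size (CPM), Scgb1a1 was at 27115 and 34177 in WT PBS, 33048 and 51038 in TG PBS, 10233 and 12122 in WT HDM, and 8950 and 12618 in TG HDM. The PBS libraries were all above the HDM libraries, and within each treatment the genotypes overlapped.

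Per kilobase of transcript, the mean level of Scgb1a1 in WT PBS was 64381 ± 10491 CPM (SD, n = 2), far above the other members. Cbr2 followed at 950 ± 76.8, Aldh1a1 at 405 ± 6.10 and Scgb3a2 at 395 ± 76.7 (SD, n = 2), and the difference between Aldh1a1 and Scgb3a2 was less than the spread between replicates. Scgb3a1 was at 231 ± 35.5, Hp at 157 ± 10.2, Nkx2-1 at 63.8 ± 12.8 and Gabrp at 49.9 ± 3.39 CPM per kilobase (SD, n = 2). The paper describes counts over coding regions. Yet Xist, an RNA without coding sequence, had between 20303 and 31372 counts in the HDM libraries. Which bases were counted was not tested. Per kilobase of coding sequence the levels and part of their order were different. On that scale Scgb3a2 was at 795 ± 155 and Aldh1a1 at 635 ± 9.58 CPM (SD, n = 2), so that Scgb3a2 was then the higher of the pair. Nkx2-1 was at 161 ± 32.1 and Gabrp at 124 ± 8.43 CPM per kilobase of coding sequence (SD, n = 2). The other 18 secretoglobin genes of the table were nearly silent. Of these, only Scgb1c1, with 2 to 51 counts per library, passed the filter on low counts, and it did not pass the test in any comparison.

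**Figure D1:**
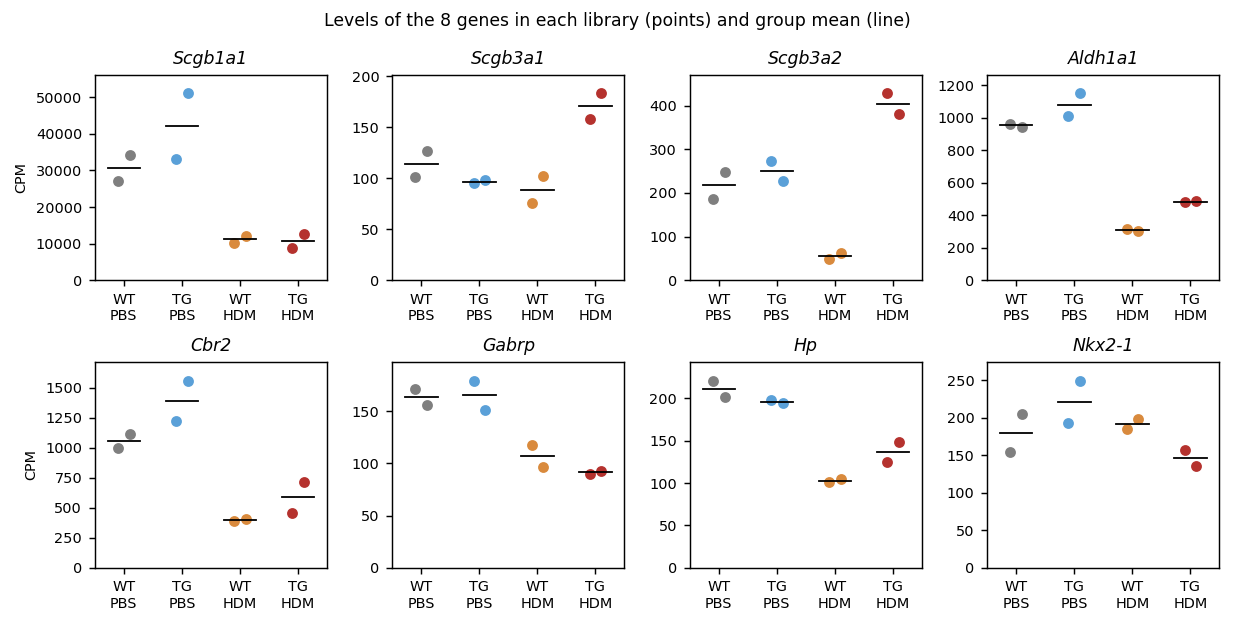
CPM of the 8 genes on linear axes from 0, with 1 panel per gene, 1 point per library and a line at the mean of each group (n = 2). Scgb3a2 was lowest in WT HDM at 48.2 and 61.6 and highest in TG HDM at 428 and 380, whereas Scgb1a1, Aldh1a1 and Cbr2 were lower in both HDM groups than in both PBS groups.

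HDM was compared with PBS in WT mice, a comparison in which HDM and sex cannot be told apart. Of the 8 genes, 6 were lower in WT HDM and none was higher, against 2.30% of all 15123 genes tested that were lower (edgeR quasi-likelihood test, Benjamini-Hochberg adjusted p under 0.05). The median log2 fold change of the 8 genes was -1.22, beside 0.02 over all genes tested. Scgb1a1 fell by 1.46 (SE 0.09, adjusted p = 2.85e-07) on the log2 scale, which left 0.365 of its WT PBS level. Scgb3a2, whose product is a secretoglobin of the bronchioles, was at 187 and 247 CPM in WT PBS and at 48.2 and 61.6 CPM in WT HDM. These libraries were well apart, and the fall of Scgb3a2 was 1.99 (SE 0.19, adjusted p = 1.34e-05).

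Both enzymes fell as well. Aldh1a1, which oxidizes retinal to retinoic acid, was at 964 and 944 CPM in WT PBS and at 317 and 302 CPM in WT HDM, a log2 fold change of -1.62 (SE 0.11, adjusted p = 5.49e-07). Cbr2, a lung carbonyl reductase, was at 994 and 1114 CPM in WT PBS and at 387 and 409 CPM in WT HDM, a log2 fold change of -1.41 (SE 0.11, adjusted p = 2.30e-06). Relative to Scgb1a1, Cbr2 had 36.7 and 32.6 reads per 1000 Scgb1a1 reads in WT PBS and 37.8 and 33.7 in WT HDM. The corresponding ratios of Aldh1a1 were 35.6 and 27.6 in WT PBS and 31.0 and 24.9 in WT HDM. For both enzymes the groups overlapped.

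Hp, the haptoglobin that binds free haemoglobin, was at 221 and 202 CPM in WT PBS and at 101 and 105 CPM in WT HDM, and it fell by 1.04 (SE 0.15, adjusted p = 0.000650). Gabrp, the pi subunit of the GABA-A receptor, was at 171 and 156 CPM in WT PBS and at 118 and 96.8 CPM in WT HDM, and its fall of 0.61 (SE 0.17) had an adjusted p of 0.0425 by edgeR. Gabrp no longer passed the threshold in 4 of its 12 alternative fits, among them those without WT PBS replicate 1 (adjusted p = 0.242), WT PBS replicate 2 (0.0949) or WT HDM replicate 2 (0.111). Scgb3a1 and Nkx2-1 did not pass the test without an offset. Scgb3a1 was at 102 and 127 CPM in WT PBS and at 75.9 and 102 CPM in WT HDM, with a log2 fold change of -0.36 (SE 0.20, adjusted p = 0.336). With an offset for transcript length Scgb3a1 fell by 0.72 (adjusted p = 0.0203), so that 7 of the 8 genes were lower, against 361 of the 15123 genes tested. With coding length in its place, an alternative chosen after seeing the data, Scgb3a1 was at -0.55 (adjusted p = 0.0894). Nkx2-1, the transcription factor of lung epithelial identity, was at 154 and 205 CPM in WT PBS and at 186 and 198 CPM in WT HDM, which overlapped, with a log2 fold change of 0.10 (SE 0.16, adjusted p = 0.812).

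In TG mice, HDM was compared with PBS in the same way, with the same limit that HDM and sex cannot be told apart. Of the 8 genes, 4 were lower in TG HDM, against 5.35% of the 15086 genes tested, and 2 were higher, against 8.43%. Scgb1a1 fell by 1.95 (SE 0.19, adjusted p = 7.41e-05) on the log2 scale. Aldh1a1 was at 1012 and 1150 CPM in TG PBS and at 480 and 485 CPM in TG HDM, and it fell by 1.14 (SE 0.16, adjusted p = 0.000955). Cbr2 was at 1219 and 1559 CPM in TG PBS and at 458 and 717 CPM in TG HDM, and it fell by 1.22 (SE 0.21, adjusted p = 0.00278). Gabrp, at 179 and 151 CPM in TG PBS and 90.1 and 92.8 CPM in TG HDM, fell by 0.83 (SE 0.21, adjusted p = 0.0233). These 4 genes had also fallen in WT mice. With the offset for transcript length Scgb1a1 was at -3.22 and Cbr2 at -1.92.

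The higher genes in TG HDM were both secretoglobins of the 3A family. Scgb3a2 was at 273 and 227 CPM in TG PBS and at 428 and 380 CPM in TG HDM, a log2 fold change of 0.72 (SE 0.19, adjusted p = 0.0263). Scgb3a1 was at 95.1 and 98.5 CPM in TG PBS and at 159 and 184 CPM in TG HDM, a log2 fold change of 0.84 (SE 0.21, adjusted p = 0.0196). These rises moved with gene length in the libraries. Of the genes tested, those with transcripts of at most 600 bases had a median log2 fold change of 1.31 and longer genes one of 0.03. With an offset for transcript length, Scgb3a2 was at -0.44 (adjusted p = 0.193) and Scgb3a1 at -0.40 (adjusted p = 0.251), so both were then in the opposite direction and neither passed the test. With coding length in its place, an alternative chosen after seeing the data, Scgb3a2 also changed direction, whereas Scgb3a1 did not. Both also lost the call without either TG PBS replicate, at adjusted p-values of 0.152 and 0.336 for Scgb3a2 and of 0.204 and 0.211 for Scgb3a1.

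Hp and Nkx2-1 did not pass the test in TG mice. Hp was at 198 and 194 CPM in TG PBS and at 125 and 148 CPM in TG HDM, with a log2 fold change of -0.50 (SE 0.20, adjusted p = 0.122), and with the length offset it fell by 1.04 (adjusted p = 0.00654). Nkx2-1 was at 193 and 250 CPM in TG PBS and at 158 and 136 CPM in TG HDM, with a log2 fold change of -0.57 (SE 0.21, adjusted p = 0.101), and with the offset by coding length it fell by 0.72 (adjusted p = 0.0458). Without TG PBS replicate 2, Scgb1a1 was the 1 member that still passed the threshold in the comparison of TG HDM with TG PBS, and 277 of the genes tested passed it, compared with 2079 with all libraries.

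The PBS-treated genotypes were compared to find the effect of the transgene without allergen. None of the 8 genes differed between the libraries labelled TG PBS and WT PBS, against 0.657% of the 14926 genes tested that passed in either direction by edgeR. At an unadjusted p under 0.05, 1489 genes and 2 of the 8 members passed. These were Scgb1a1, with a log2 fold change of 0.44 (SE 0.13, adjusted p = 0.142), and Cbr2, with 0.39 (SE 0.11, adjusted p = 0.160). DESeq2 also called none of the 8 genes. Without TG PBS replicate 1, Scgb1a1 was at 0.74 (adjusted p = 2.40e-105) and Cbr2 at 0.56 (adjusted p = 3.51e-05), and TG PBS replicate 2, then the only library of its group, was assumed to vary like the WT PBS libraries, so the spread in that fit rests on 1 pair of libraries. The remaining members had log2 fold changes between -0.25 for Scgb3a1 and 0.29 for Nkx2-1.

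The libraries labelled TG HDM and WT HDM were compared next, in which Ddah1 was not higher in those labelled TG HDM. In the libraries labelled TG HDM, 2 of the 8 genes were higher than in those labelled WT HDM and none was lower, against 1.84% of the 15191 genes tested that were higher. Scgb3a2 was at 48.2 and 61.6 CPM in WT HDM and at 428 and 380 CPM in TG HDM. Its libraries were far apart, with a log2 fold change of 2.92 (SE 0.22, adjusted p = 0.000132), a 7.56-fold difference, which was above that of 99.3% of the genes tested. Scgb3a1 was at 75.9 and 102 CPM in WT HDM and at 159 and 184 CPM in TG HDM, with a log2 fold change of 0.98 (SE 0.22, adjusted p = 0.0429), a 1.97-fold difference.

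The other 6 genes did not pass the test. Aldh1a1 was at 317 and 302 CPM in WT HDM and at 480 and 485 CPM in TG HDM. Its log2 fold change of 0.68 (SE 0.17) had an adjusted p of 0.0647 by edgeR and of 0.0100 by DESeq2. Cbr2 had a log2 fold change of 0.60 (SE 0.21, adjusted p = 0.172), Hp one of 0.45 (SE 0.21, adjusted p = 0.321), Gabrp one of -0.19 (SE 0.22, adjusted p = 0.732) and Nkx2-1 one of -0.35 (SE 0.20, adjusted p = 0.424). Scgb1a1 overlapped between the groups, with a log2 fold change of -0.02 (SE 0.15, adjusted p = 0.974).

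Transcript length moved with this comparison across all genes. In TG HDM against WT HDM, 211 genes with transcripts of at most 600 bases had a median log2 fold change of 0.92 (quartiles -0.19 and 1.51), and longer genes had a median of 0.01. Spearman's rho between length and log2 fold change was -0.28 across 14455 genes, which are not independent replicates. With a smooth offset for length, 177 genes passed the threshold, of which 49.7% were higher, compared with 370 genes, of which 75.4% were higher, without it. Scgb3a2 kept a log2 fold change of 2.09 (SE 0.21, adjusted p = 0.00146) with the offset. Cbr2 was then at 0.098 and Hp at 0.061. Scgb3a1 was at 0.09 (SE 0.20, adjusted p = 0.891), and Scgb1a1 was lower in TG HDM by a log2 fold change of -0.94 (SE 0.10, adjusted p = 0.00162). Genes with transcripts above 400 and up to 600 bases then had quartiles of -1.01 and 0.65, which enclosed the value of Scgb1a1. With coding length in place of transcript length, the values were 2.26 for Scgb3a2 (adjusted p = 0.000709), 0.39 for Scgb3a1 (adjusted p = 0.410) and -0.66 for Scgb1a1 (adjusted p = 0.0294). The part of gene length in the difference of Scgb3a1 was not tested beyond these fits. Scgb3a1 also lost its call without WT HDM replicate 1 (adjusted p = 0.480) or WT HDM replicate 2 (adjusted p = 0.242).

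**Figure D2:**
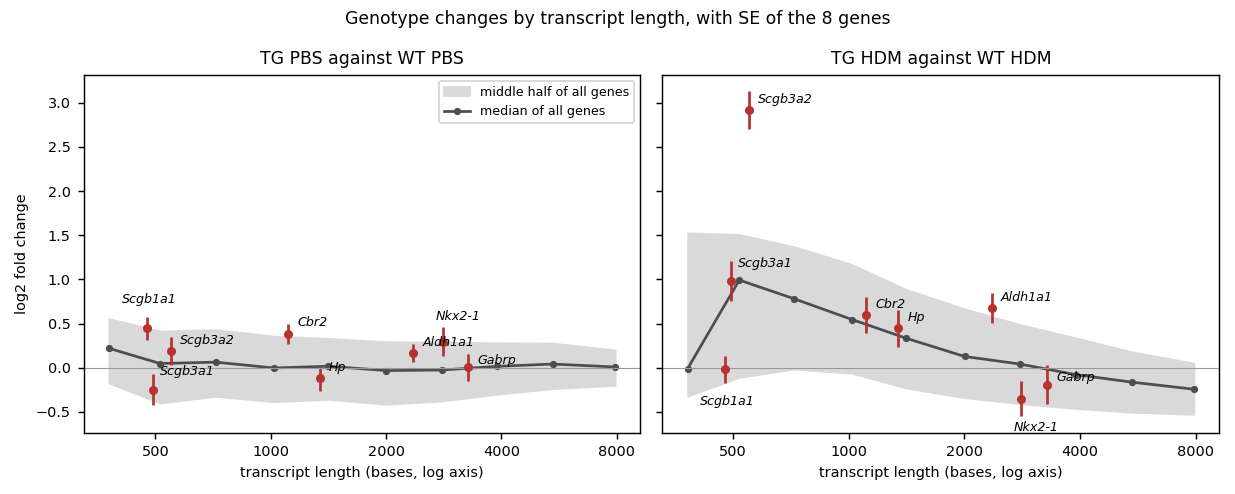
Log2 fold change against transcript length (log axis) for TG PBS against WT PBS and TG HDM against WT HDM. The line and band are the median and the quartiles of all genes in classes of length, of which the shortest holds 30 genes under HDM, and points are the 8 genes with 1 SE. Under HDM the median of all genes was 0.99 for transcripts above 400 and up to 600 bases, close to Scgb3a1 at 0.98, and Scgb3a2 stood above it at 2.92.

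Ratios between secretoglobins within 1 library do not depend on the scaling of libraries. Scgb3a2 had 1.84 and 1.95 reads per Scgb3a1 read in WT PBS, 2.87 and 2.30 in TG PBS, and 2.70 and 2.07 in TG HDM. In WT HDM the ratio was 0.635 and 0.603, below all the other libraries. Both transcripts have similar lengths, 550 and 493 bases. Relative to Scgb1a1, the order of the groups was different. Scgb3a2 had 6.91 and 7.23 reads per 1000 Scgb1a1 reads in WT PBS, 8.25 and 4.45 in TG PBS, and 4.71 and 5.08 in WT HDM. In TG HDM it had 47.8 and 30.1, above all the other libraries. Scgb3a1 had 3.75 and 3.70 reads per 1000 Scgb1a1 reads in WT PBS, 2.88 and 1.93 in TG PBS, 7.42 and 8.42 in WT HDM, and 17.7 and 14.5 in TG HDM, so that both HDM groups were above the PBS groups.

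**Figure D3:**
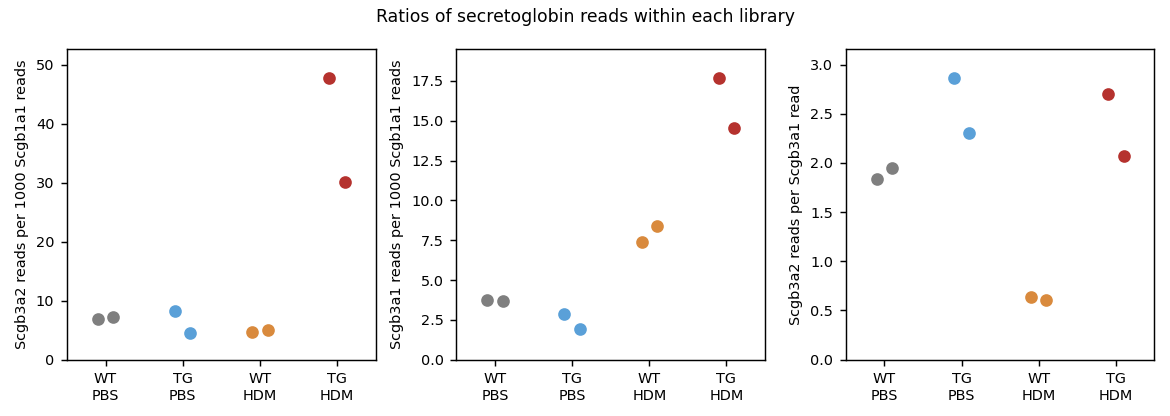
Reads of Scgb3a2 and of Scgb3a1 per 1000 Scgb1a1 reads, and reads of Scgb3a2 per Scgb3a1 read, with 1 point per library and axes from 0. Relative to Scgb3a1, Scgb3a2 was low in WT HDM at 0.635 and 0.603, and relative to Scgb1a1 it was high in TG HDM at 47.8 and 30.1.

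Whether the genotype effect differed between HDM and PBS was tested as an interaction on all 8 libraries, in which a genotype effect that differs by treatment and one that differs by sex cannot be told apart. Of the 8 genes, 2 passed with a higher effect under HDM and none with a lower one, against 1.05% of the 15868 genes tested that passed as higher. The genotype effect on Scgb3a2 was larger under HDM by 2.68 on the log2 scale (SE 0.27, adjusted p = 9.65e-06), and that on Scgb3a1 by 1.18 (SE 0.29, adjusted p = 0.0417). With the length offset the difference remained past the threshold for Scgb3a2 at 1.86 (SE 0.25, adjusted p = 0.000365). For Scgb3a1 it was 0.31 (SE 0.26, adjusted p = 0.682), and for Scgb1a1 it was -1.42 (SE 0.20, adjusted p = 0.000399), compared with -0.51 (adjusted p = 0.316) without the offset. With the offset, genes with transcripts above 400 and up to 600 bases had quartiles of -0.96 and 0.83. Scgb3a1 lost this call in 8 of its 15 alternative fits, and Scgb3a2 kept it in all 15. Aldh1a1 was at 0.46 (adjusted p = 0.251), Cbr2 at 0.17 (adjusted p = 0.821), Hp at 0.52 (adjusted p = 0.338), Gabrp at -0.25 (adjusted p = 0.732) and Nkx2-1 at -0.69 (adjusted p = 0.230).

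Other genes of club and airway secretory cells were described as a list of 35, all of them in the table. In WT HDM against WT PBS, 11 of the 32 tested were lower, against 2.30% of all genes tested, and 6 were higher, against 4.44%, and the median log2 change of the list was -0.47, beside 0.02 over all genes tested. Those that fell included Cyp2f2, the club cell cytochrome P450, at -2.01 and Bpifa1, a secreted defence protein of the airway, at -2.35. Those that rose included Pigr, the receptor that carries polymeric immunoglobulin across the epithelium, at 2.36 and Reg3g, an antibacterial lectin, at 2.32. In TG HDM against TG PBS, 6 of the 33 tested were lower, against 5.35% of all genes tested, and 8 were higher, against 8.43%, with a list median of 0.19. With the length offset 6 were lower and 6 were higher, against 626 and 771 of the 15086 genes tested, and the list median was -0.36. Cyp2f2 fell by 1.68, Reg3g rose by 3.72 and Tff2, a trefoil peptide of mucus, rose by 5.06, and all passed the test. Krt15, a keratin of basal and early secretory cells, had 0 counts in both TG PBS libraries and 23 and 68 in TG HDM, which was at least 14.1-fold higher against a floor of 3 counts per library.

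Between the genotypes under HDM, 3 of the 33 tested were higher in the libraries labelled TG HDM, against 1.84% of all genes tested, and 2 were lower, against 0.599%. The median of the list was 0.61, and that of all genes tested was 0.01. Ces1d, a carboxylesterase, was at 96.2 and 105 CPM in WT HDM and 285 and 215 CPM in TG HDM, a log2 fold change of 1.36 (SE 0.22, adjusted p = 0.00743). Selenbp1, a selenium-binding protein, had one of 1.29, and Wfdc2, a secreted protein with whey acidic protein domains, one of 1.17 (adjusted p = 0.00972 and 0.00739). Pigr was lower by a log2 fold change of -0.98 (adjusted p = 0.0208). With the length offset the median of the list was 0.26, and 2 were higher and 1 was lower, against 88 and 89 of the 15191 genes tested. Ces1d, Selenbp1 and Pigr kept their calls, and Wfdc2 was at 0.53 (adjusted p = 0.176). Under PBS, where the list median was -0.04, Bpifa1 was the 1 gene of 32 that edgeR called, against 0.657% of all genes tested. It was lower in the libraries labelled TG PBS by a log2 fold change of -1.41 (adjusted p = 0.000243). DESeq2 called 2 of the list as lower under PBS, against 119 of 18445 genes. Under HDM DESeq2 called 6 of the list as higher and 2 as lower, against 586 and 335 of 18554 genes.

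Markers of other cells were followed in the same libraries. The 10 goblet cell markers summed to between 66.9 and 70.6 CPM in WT PBS and to between 65.8 and 79.4 CPM in TG PBS. They summed to between 2362 and 2406 CPM in WT HDM and to between 818 and 973 CPM in TG HDM. In WT HDM against WT PBS 6 of the 7 tested rose, against 4.44% of all genes tested, and in TG HDM against TG PBS 6 of the 8 tested rose, against 8.43%. These counts were 4 of 7 and 5 of 8 with the length offset, against 645 of the 15123 and 771 of the 15086 genes tested. Clca1, a secreted protein of goblet cells, was at 8.04 and 3.35 CPM in WT PBS, 1767 and 1715 CPM in WT HDM, and 590 and 710 CPM in TG HDM. Between the genotypes under HDM, 5 of the 8 goblet markers tested were lower in the libraries labelled TG HDM, against 0.599% of all genes tested. Among them were Clca1 at -1.38 (SE 0.16, adjusted p = 0.00144) and Slc26a4, the anion exchanger pendrin, at -1.82 (SE 0.22, adjusted p = 0.00157). With the length offset 4 of the 8 were lower in these libraries, against 89 of the 15191 genes tested. Scgb3a2 was higher in the same libraries. Under PBS none of the 6 goblet markers tested passed by edgeR, with 1 at an unadjusted p under 0.05, and DESeq2 called 1 as higher.

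**Figure D4:**
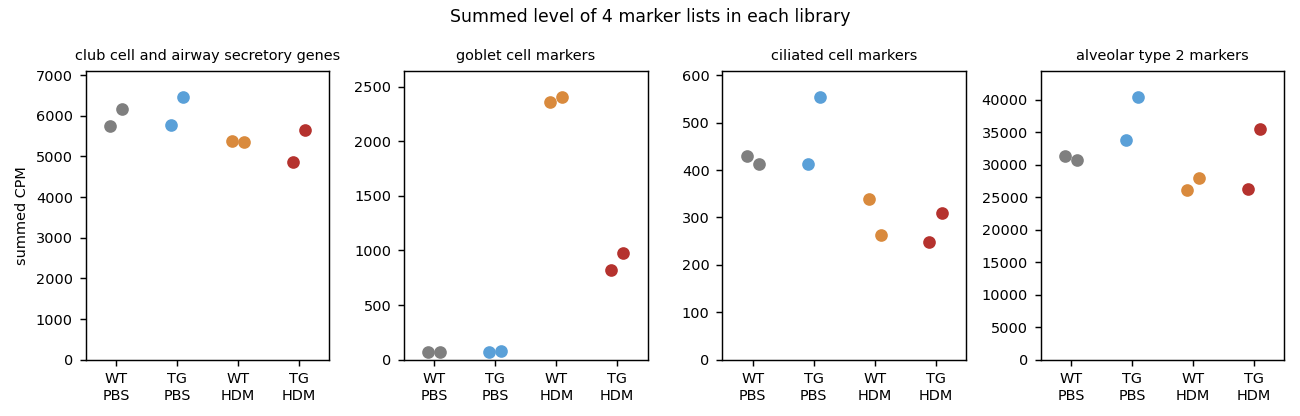
Summed CPM of the 35 club cell and airway secretory genes other than the 8 members, 10 goblet cell, 12 ciliated cell and 12 alveolar type 2 markers, with 1 point per library and axes from 0. Goblet cell markers were between 2362 and 2406 in WT HDM and between 818 and 973 in TG HDM, while the club cell list, in which Cyp2f2 had a mean of 2082 in WT PBS and 518 in WT HDM and Muc5b one of 742 and 2281, lay between 4851 and 6462.

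Ciliated cell markers stand for the other main cell of the airway surface. They summed to between 413 and 554 CPM in the PBS libraries and to between 249 and 339 CPM in the HDM libraries. The largest of these markers was Tppp3, with a mean of 195 CPM in WT PBS. Of the 12 ciliated genes tested, 1, Tppp3, fell in each comparison of HDM with PBS, by 0.69 in WT and by 1.43 in TG mice, against 2.30% and 5.35% of all genes tested that fell, the latter close to the share of 1 in 12. Between the genotypes none of the 12 passed by edgeR or DESeq2, with 1 at an unadjusted p under 0.05 under each treatment. Alveolar type 2 markers summed to between 30701 and 40402 CPM in the PBS libraries. In the HDM libraries they summed to between 26032 and 35414 CPM. Lyz2 and Sftpc were the largest of these markers, with means of 11722 and 9866 CPM in WT PBS. In WT mice 4 of these 12 rose and 2 fell with HDM, against 4.44% and 2.30% of all genes tested, and Sftpd, a surfactant collectin, rose by 1.06 while Sftpc, the surfactant protein that marks these cells, fell by 0.62. In TG mice 1 of the 12 rose, a share close to the 8.43% of all genes tested, and 2 fell, against 5.35%. Between the genotypes 1 was higher under PBS, against 0.281% of all genes tested, and 1 under HDM, against 1.84%. With the length offset 1 rose and 3 fell in TG mice, against 771 and 626 of the 15086 genes tested. Between the genotypes under HDM 1 was lower with the offset, against 89 of the 15191 genes tested. Sftpd, the higher gene there without the offset, was then at 0.41 (adjusted p = 0.261). Of the 9 alveolar type 1 markers, 5 fell with HDM in each genotype, against 2.30% of all genes tested in WT and 5.35% in TG mice. Among them were Cav1, Clic5, Rtkn2 and Vegfa. Of the 9, 1, Hopx, was higher in TG PBS than in WT PBS, against 0.281% of all genes tested. Under the length offset 6 fell in WT and 3 in TG mice, against 361 of the 15123 and 626 of the 15086 genes tested. The part of these cells in the fall of the club cell genes was not tested.

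Neutrophil markers were lower in TG PBS than in WT PBS for 4 of 8 tested, against 0.375% of all genes tested, and in WT HDM than in WT PBS for 4 of 8, against 2.30%. In TG HDM against TG PBS 1 of 6 rose, against 8.43%, a call that was lost with the length offset. They summed to between 429 and 453 CPM in WT PBS and to between 184 and 237 CPM in the other libraries. Basal cell markers summed to between 46.6 and 81.4 CPM, markers of submucosal glands to at most 42.1 CPM, of airway cartilage to between 0.536 and 5.43 CPM, and of thyroid follicles to between 2.30 and 9.29 CPM. In the basal list the keratins Krt5 and Krt14 reached at most 6.58 and 0.697 CPM in any library, whereas Snai2 was at 24.0 CPM or more. In these 4 lists edgeR called Krt5 and Dmbt1 in TG HDM against TG PBS, 1 of 4 basal and 1 of 2 gland markers tested, against 8.43% of all genes tested. Both were at 0 counts in TG PBS and were at least 16.3-fold and 15.2-fold higher in TG HDM. DESeq2 called both of the gland markers tested in this comparison as higher. Of the listed club cell and airway secretory genes, Kcne1 had 0 counts in all 8 libraries and Upk3a in 6 of the 8.

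Of 22 lung epithelial transcription factors tested, 1 rose in WT HDM against WT PBS, a share close to the 4.44% of all genes tested. This was Sox9, with 262 and 40 counts in WT HDM and 3 and 1 in WT PBS. In TG HDM against TG PBS 3 of 23 fell, against 5.35% of all genes tested, among them Foxp4 and Nfib, at log2 fold changes of -1.18 and -0.96. Foxp4 and Creb3l1, 2 of the 23 tested, were lower in TG HDM than in WT HDM, against 0.599% of all genes tested. Their log2 fold changes were -1.39 and -1.84. Foxp4 no longer passed with the length offset in either comparison (adjusted p = 0.0527 against TG PBS and 0.0633 against WT HDM), nor did Nfib (adjusted p = 0.0851). With the offset 1 of 23 was lower in each, against 626 of the 15086 and 89 of the 15191 genes tested. Hopx was the 1 of 21 tested that was higher in TG PBS than in WT PBS, by 0.84, against 0.281% of all genes tested. Of 8 further carbonyl reductases and related enzymes, listed beside Cbr2, none passed the test in any of the 4 comparisons, with medians between 0.09 and 0.50. For HDM against PBS the median was -0.05 in WT and -0.22 in TG mice with the length offset. These counts of 0 are from edgeR, DESeq2 also called none, and at an unadjusted p under 0.05 there were 2 in TG HDM against WT HDM and 1 in TG HDM against TG PBS.

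Among the 21 genes of retinoid metabolism listed beside Aldh1a1, 2 fell and 1 rose in WT HDM and 3 fell and 1 rose in TG HDM, each against PBS. The single genes that rose, of 16 and 17 tested, are shares close to the 4.44% and 8.43% of all genes tested, and 2.30% and 5.35% of all genes fell. Lrat, which esterifies retinol, fell by 1.13 in WT and by 1.04 in TG mice, and Cyp26b1, which degrades retinoic acid, fell by 1.72 and by 1.93. In TG mice 1 fell and 1 rose with the length offset, against 626 and 771 of the 15086 genes tested. Lrat and Cyp26b1 no longer passed there (adjusted p = 0.0722 and 0.0559), and the list median was -0.67. Between the genotypes edgeR called none of this list, with 1 at an unadjusted p under 0.05 under each treatment, and DESeq2 called 1 as lower in TG HDM than in WT HDM. Of 7 genes of haptoglobin and haem handling listed beside Hp, 6 were tested in each comparison. Of these, Hmox1, the haem oxygenase, was lower in TG PBS than in WT PBS at -1.61, against 0.375% of all genes tested. Hmox1 also rose in TG HDM against TG PBS by 1.86, against 8.43%. Of the other 18 GABA receptor subunits, 3 or 4 passed the filter in each comparison and none was called by edgeR or DESeq2, with 1 at an unadjusted p under 0.05 in TG HDM against WT HDM.

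The genes whose log2 CPM followed each secretoglobin most closely over the 8 libraries were found among 9523 genes, as a description of libraries that share groups and scaling. For Scgb1a1 they were Dusp1, Slc43a3, Phactr2, Cyp1a1 and Fhl1, with Pearson's r between 0.983 and 0.991. Of the other members, Cbr2 and Aldh1a1 followed Scgb1a1 at r of 0.953 and 0.915. For Scgb3a1 they were Dap3, Gstp1, Polr2k, Gstp2 and Sf3b5, with r between 0.960 and 0.975, and Gstp1 and Gstp2 are near-identical genes. For Scgb3a2 they were Myl12a, Mettl7a1, Pink1, Ces1d and Mettl7a2, with r between 0.978 and 0.992. Mettl7a1 was at 134 and 157 CPM in WT HDM and at 533 and 411 CPM in TG HDM. The r between Scgb3a2 and Scgb1a1 was 0.27 and that between Scgb3a2 and Scgb3a1 was 0.74.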

How the data were processed

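Lung RNA of 8 libraries was analyzed, 2 from a pool of 4 mice in each of 4 groups, assigned by their titles. RNA was amplified before sequencing by the authors, who aligned single reads of 50 cycles to mm10 with TopHat and deposited raw read counts. The paper describes these counts as over coding regions, but Xist, without coding sequence, also has counts. Versions are not given in the sources used here. The quasi-likelihood test of edgeR (4.0.16, in R 4.3.3) was run on the counts after TMM normalization, filterByExpr (count minimum 10) and Benjamini-Hochberg adjustment over all genes tested, each comparison on its 4 libraries and the interaction on all 8, at an adjusted p-value under 0.05. SE is the log2 fold change divided by the square root of F. CPM are counts scaled by the TMM size over all 8 libraries, with a prior count of 2 on the log2 scale. Floors, of 3 counts per library, cover counting error only. The fits were tested on simulated data. RefSeq gave symbols for 23372 genes and GENCODE M21 transcript lengths for 21146. Alternatives were RLE, DESeq2 (1.42.0), no filter, a replicate block, length offsets (loess, span 0.5), all 8 libraries in one fit and leaving out each library. Replicates differed beyond sampling noise (mean chi-square per gene 13.2 to 28.7). Named genes were the members, Scgb and Gabr genes, up to 4 genes with the largest change per list and comparison, and the 5 most alike. Members and lists were chosen with earlier results of these data known, so counts over them are descriptions. One-library groups, in fits without a replicate, were assumed to vary like the others. Values of some listed genes are not reported here.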

Additional observations from a re-analysis of the deposited data

Results flagged for a closer look

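The genotype effect differed between HDM and PBS for 2 of the 8 genes, by the interaction test, in which HDM and sex cannot be told apart. Both effects were higher under HDM, against 1.05% of all genes tested that passed as higher. The difference was 2.68 on the log2 scale for Scgb3a2 and 1.18 for Scgb3a1. Of the club and airway secretory list, the same test passed for 4 of 33 genes, against the same 1.05% of all genes tested. These were Bpifa1 at 2.51, Reg3g at 1.38, Wfdc2 at 1.32 and Ces1d at 1.13. It also passed as higher for 1 of 6 haem handling genes, Hmox1 at 1.96. So did 2 of 8 neutrophil markers, S100a9 at 5.03 and S100a8 at 3.48. A lower effect under HDM passed for 2 of 8 goblet cell markers, Clca1 at -3.23 and Muc5ac at -2.06. The same held for 3 of 12 alveolar type 2 markers, Sftpb at -0.91, Cxcl15 at -0.76 and Slc34a2 at -0.63. Of all genes tested, 0.706% passed as lower. With the length offset, Scgb3a1, Reg3g, Wfdc2, Ces1d, Hmox1 and Slc34a2 did not pass this test. Groups of 2 libraries were too small to look for a library far from the others.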

How the results depend on the processing

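Of 504 values of the members under the alternatives, 427 kept their direction and their side of the threshold, 27 no longer passed it, 36 newly passed it and 14 changed direction. Scgb3a2 kept its calls in TG HDM against WT HDM (log2 fold changes of 2.07 to 3.11) and in the interaction (1.86 to 2.87) under all alternatives. In TG HDM against TG PBS, Scgb3a1 was at -0.40 with the length offset and at -0.40 with the offset and the replicate block, and Scgb3a2 was at -0.44 and -0.45, and Scgb3a2 was at -0.090 with coding length, an alternative chosen after seeing the data. Cbr2 in the interaction was at -0.34 with the length offset, -0.35 with the offset and the replicate block, and -0.054 with coding length. Of the members, RLE normalization left 1 called in TG HDM against WT HDM, where Scgb3a1 had an adjusted p of 0.0542 by edgeR. Fits with no filter on low counts called 2 in TG PBS against WT PBS and 4 in TG HDM against WT HDM. The replicate block called 1 under PBS, as did the length offset with the replicate block. Genes called by DESeq2 were 222 under PBS, 921 under HDM and 689 in the interaction, and without a filter 306, 1055 and 675, with 1588 in WT HDM against WT PBS. With the replicate block 46 genes passed under PBS and 625 under HDM. In TG HDM against WT HDM 177 genes passed with the length offset, 200 with coding length and 771 with all 8 libraries in one fit. Of the genes called in TG HDM against WT HDM, 75.4% were higher by edgeR, 63.6% by DESeq2 and 53.0% with coding length, and in the interaction 59.9% were higher without and 44.3% with the length offset. Correlations of the deviations of libraries with the same replicate number were between -0.02 and 0.03, so the numbers are not taken to pair the samples.

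Without 1 library at a time, members called were 0 to 2 and genes 75 to 432 in TG PBS against WT PBS, 1 to 4 and 6 to 1595 in TG HDM against WT HDM, 1 to 7 and 277 to 2676 in TG HDM against TG PBS, and 1 to 3 and 138 to 723 in the interaction. In WT HDM against WT PBS genes called were 652 to 1661. Log2 fold changes that changed direction ranged from -0.11 to 0.14 for Gabrp under PBS, from -0.27 to 0.19 for Scgb1a1 in TG HDM against WT HDM, from -0.094 to 0.31 for Nkx2-1 in WT HDM against WT PBS, and from -0.20 to 0.45 for Cbr2 in the interaction. With all libraries 98, 370, 1020, 2079 and 279 genes passed under PBS, under HDM, in WT mice, in TG mice and in the interaction. Under PBS, 432 passed without TG PBS replicate 1 and 275 without TG PBS replicate 2. Under HDM, 6 passed without WT HDM replicate 1, 20 without WT HDM replicate 2, 612 without TG HDM replicate 1 and 1595 without TG HDM replicate 2. In WT mice, 652 passed without WT PBS replicate 2 and 1661 without WT HDM replicate 1, and in TG mice 404 without TG PBS replicate 1 and 277 without TG PBS replicate 2. In the interaction, 162 passed without WT PBS replicate 1, 138 without WT PBS replicate 2, 146 without TG PBS replicate 2 and 723 without TG HDM replicate 2. The cause of these changes was not tested. Precision is limited by 2 libraries of 1 pool per group.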
